A study of Mus musculus with 10 samples.

Results

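The 9 genes described here encode cytokine receptors of the interleukin-1 (IL-1), IL-6 and IL-10 families, measured in mouse regulatory T cells (Treg cells), T cells that express the transcription factor Foxp3 and restrain immune responses. The genes were taken by symbol from the deposited table: Il1rl1, Il1r2, Il18r1 and Il18rap of the IL-1 family, Il6ra, Il6st and Il27ra of the IL-6 family, and Il10ra and Il10rb of the IL-10 family. All 9 were among the 13252 genes of that table, and all 9 passed the filter on low values, a mean of at least 10 normalized counts. Total RNA had been sequenced in 10 libraries, 5 of the population CD4+RFP+GFP+ (Helios+ Treg cells) and 5 of the population CD4+RFP+GFP- (Helios- Treg cells). GFP stands for Helios in these labels, a zinc finger transcription factor encoded by Ikzf2. The sources used here do not say what RFP reports, nor the strain, age, tissue or alleles of the mice. The design text names wild-type and knockout Helios, whereas the sample labels name populations sorted from Treg cells. The comparison below is of those sorted populations, as labelled, and not of cells with and without the Helios gene. Nothing in the labels says whether the libraries of a group came from separate mice, so each p-value measures only the spread between these libraries, which may be technical.

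Receptors of these families work as pairs or complexes of a chain that binds 1 cytokine and a chain that is shared or accessory. Signalling receptors of the IL-1 family carry an intracellular domain that recruits MyD88 and IRAK kinases and leads to NF-kB. Most IL-6 family receptors signal through the shared chain gp130, and IL-10 family receptors through paired class II chains, both by way of JAK kinases and STAT factors such as STAT3. In Treg cells the IL-33 receptor ST2, encoded by Il1rl1, is a known mark of cells that reside in tissues, and IL-6 is known as a cytokine that opposes the Treg program.

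The table held 1512 higher genes (14.1% of the 10718 tested) and 1143 lower genes (10.7%) in Helios+ cells, 24.8% in all, at an adjusted p under 0.05 in limma's moderated test. Against that background 7 of the 9 receptor genes passed the test, 5 higher and 2 lower. Of the 4 IL-1 family genes 3 were higher and none lower, of the 3 IL-6 family genes none was higher and 2 were lower, and both IL-10 family genes were higher. The median log2 change of the 9 genes was 0.37, beside -0.02 over all genes tested, and their median absolute change was 0.44, beside 0.18. Il1r2 had a Helios- mean below 10 and passed the filter through its Helios+ values. The receptors were also chosen with earlier results of these data known. These counts and medians therefore lean toward changed and higher genes. The groups did not overlap for 4 of the 9 receptors, beside 19.5% of all genes tested. The same replicate number marked a Helios+ and a Helios- library that deviated together, though only by a small margin for numbers 4 and 5. With that number as a block in limma 8 of the 9 passed, beside 37.3% of all genes, with 5 higher (18.9% of all genes) and 3 lower (18.5%). A change is given as Helios+ minus Helios- in log2(normalized count + 1). On this scale low genes often appear to change less than they do. Il1r2, with libraries at 0, had a larger change on it than in count tests.

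Recovered reads per library averaged 5970031 ± 899824 in Helios+ cells and 5935899 ± 711966 in Helios- cells (SD, n = 5 each). The sort was checked on Ikzf2, which averaged 10367 ± 456 normalized counts in Helios+ cells and 487 ± 56.5 in Helios- cells (SD, n = 5 each), 21.3-fold higher. Foxp3 averaged 3570.1 ± 201 normalized counts in Helios+ cells and 3526 ± 226 in Helios- cells, with a limma adjusted p of 0.879. Of 9 genes that define T cells and Treg cells, 3 were higher (Il2ra, Ctla4 and Ikzf2) and 1 lower (Cd247), beside 14.1% and 10.7% of all genes tested. Ikzf2 was bound to be among them, as the populations were sorted on Helios. With the replicate block 5 were higher and 1 lower, beside 18.9% and 18.5%. Markers of other cell types were also read. The summed normalized counts of 8 B cell markers were 1609.9 to 2281 in Helios+ libraries and 1818 to 2687 in Helios- libraries. None of the 8 passed the test, and 4 were lower with the replicate block, beside 18.5% of all genes. Sums of 12 macrophage, monocyte and dendritic cell markers were 424 to 779.6 in Helios+ libraries and 311 to 505 in Helios- libraries, with Cd14 at 0 in some libraries. Of 10 tested genes 1 was higher (Csf1r), beside 14.1% of all genes, and 2 were higher with the replicate block, beside 18.9%. The 7 neutrophil markers summed to 80.3 to 235 in Helios+ libraries and 67.7 to 205 in Helios- libraries, and none passed. CD8 T and NK cell markers summed to 498 to 576 in Helios+ libraries and 492 to 596 in Helios- libraries, with 1 of 7 higher (Nkg7), beside 14.1% of all genes. With the replicate block 1 of these 7 was higher and 1 lower, beside 18.9% and 18.5%. Erythroid markers, 2 of 8 listed, summed to at most 15.7 in Helios+ libraries and at most 19.7 in Helios- libraries. In bulk libraries such as these, fewer cells that express a gene and less of its RNA per cell cannot be told apart.

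**Figure D1:**
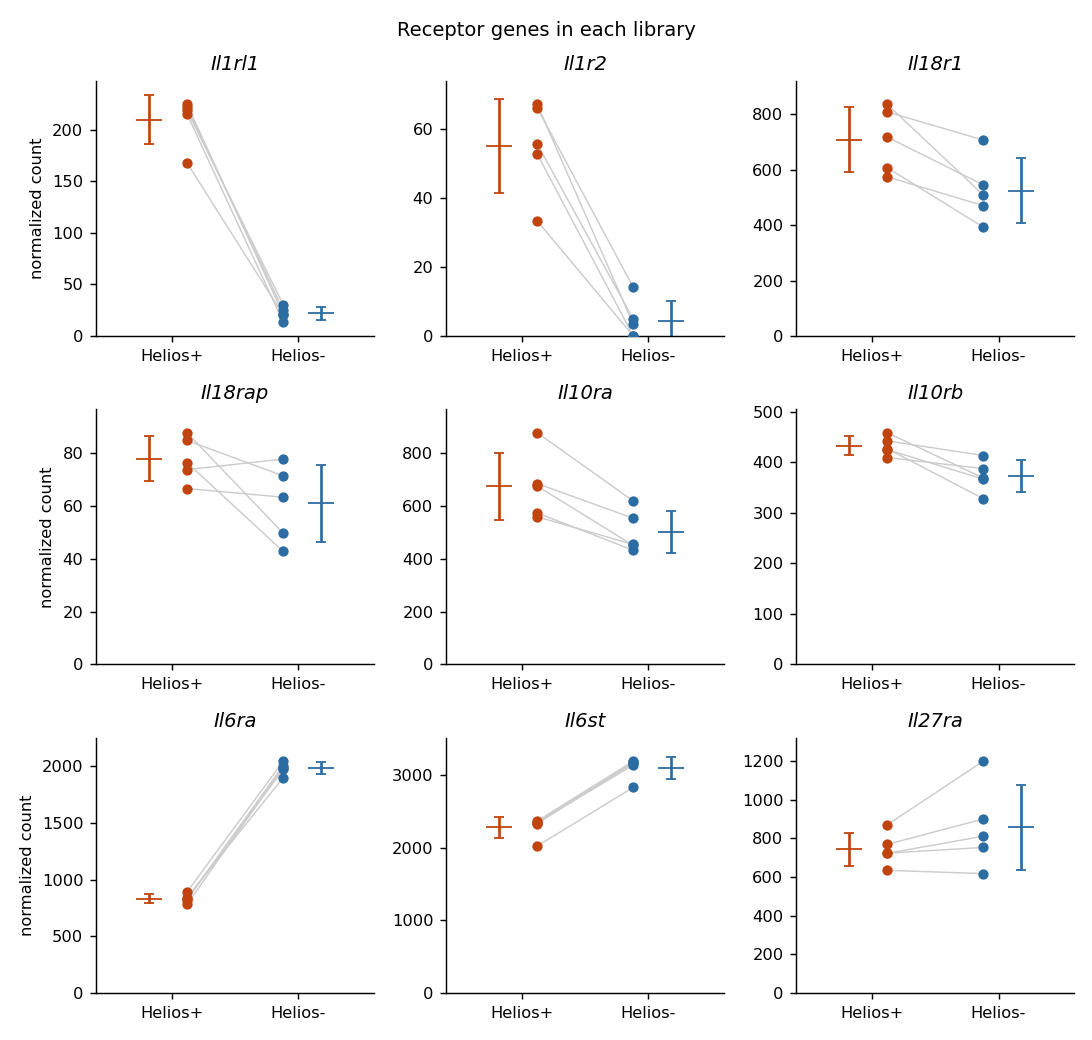
Normalized count of each receptor gene (vertical axes, each starting at 0) in the 5 Helios+ libraries, left, and the 5 Helios- libraries, right, with the mean and SD as bars (ending at 0 where the SD exceeds the mean) and grey lines joining equal replicate numbers. Il1rl1, Il1r2, Il6ra and Il6st have groups that do not overlap, and the other 5 genes do not separate.

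Il1rl1 and Il1r2, the IL-33 receptor and the IL-1 decoy receptor, were the receptor genes with the largest change, at 9.47-fold and 12.3-fold higher mean counts in Helios+ cells. Without Helios- replicate 1 the fold of Il1r2 was 26.5. Il6ra, which binds IL-6, was 2.38-fold lower, the largest decrease. The 250 bases before the RefSeq start sites of these genes and of Il6st are shown because they are the genes whose groups separated. They come from RefSeq promoters on build GRCm38.p6 and run 5' to 3' on the strand of the gene. Capitals mark matches, on either strand, to 6 short motifs: GATAA for GATA factors, TGTTTAC for forkhead factors, TTCNNNGAA for STAT factors, TGGGAA for the Ikaros family, TGANTCA for AP-1 and TGTGGT for Runx factors. Of the 9 receptors 6 matched the RefSeq table, with 9 windows, and Il10ra, Il10rb and Il27ra are named only.
Il1rl1 window 1, chr1:40429320-40429569, plus strand: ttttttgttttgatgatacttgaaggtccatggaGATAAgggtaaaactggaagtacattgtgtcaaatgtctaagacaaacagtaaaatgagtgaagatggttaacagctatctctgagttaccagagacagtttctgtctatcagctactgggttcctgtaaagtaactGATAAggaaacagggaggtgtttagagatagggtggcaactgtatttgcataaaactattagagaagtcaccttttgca
Il1rl1 window 2, chr1:40439379-40439628, plus strand: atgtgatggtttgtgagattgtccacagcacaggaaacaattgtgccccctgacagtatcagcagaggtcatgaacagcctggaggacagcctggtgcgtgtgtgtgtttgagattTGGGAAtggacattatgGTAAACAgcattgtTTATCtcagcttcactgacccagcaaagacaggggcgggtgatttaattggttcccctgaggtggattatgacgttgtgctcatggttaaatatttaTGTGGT
Il1r2, chr1:40085843-40086092, plus strand: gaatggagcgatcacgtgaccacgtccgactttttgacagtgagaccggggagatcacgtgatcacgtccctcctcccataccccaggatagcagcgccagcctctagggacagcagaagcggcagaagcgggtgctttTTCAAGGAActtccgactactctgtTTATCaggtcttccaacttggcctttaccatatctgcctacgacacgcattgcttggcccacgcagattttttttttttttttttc
Il6ra, chr3:89913197-89913446, minus strand: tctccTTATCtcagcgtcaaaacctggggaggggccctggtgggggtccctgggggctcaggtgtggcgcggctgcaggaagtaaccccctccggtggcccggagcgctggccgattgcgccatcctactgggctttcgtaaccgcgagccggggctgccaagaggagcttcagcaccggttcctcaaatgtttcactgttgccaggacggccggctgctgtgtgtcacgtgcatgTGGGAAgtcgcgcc
Il6st, chr13:112463820-112464069, plus strand: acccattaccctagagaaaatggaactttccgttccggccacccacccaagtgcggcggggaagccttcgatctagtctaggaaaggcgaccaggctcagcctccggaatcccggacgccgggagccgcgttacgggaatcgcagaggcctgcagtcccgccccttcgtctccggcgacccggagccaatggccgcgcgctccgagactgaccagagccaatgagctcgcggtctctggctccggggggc
Il1rl1 window 1 held 2 GATAA matches, at bases -216 to -212 and -79 to -75 from the start site. Window 2 held 1 match each of the Ikaros, forkhead, GATA and Runx motifs, in that order toward the start site. The Il1r2 window held a STAT match at bases -111 to -103 and a GATA match at -86 to -82, and the Il6ra window held a GATA match at -245 to -241 and an Ikaros match at -14 to -9. None of the 6 motifs was found in the Il6st window, and no matches overlapped in the 5 windows shown. Among all 32851 RefSeq windows of the same length, 22.6% held the GATA motif, 21.6% the Ikaros motif, 14.05% the Runx motif, 7.02% the STAT motif, 6.75% the AP-1 motif and 3.17% the forkhead motif. These matches describe letters only. GC content was 37.6% and 46.4% in the Il1rl1 windows, 51.2% for Il1r2, 65.2% for Il6ra and 66.0% for Il6st.

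Within the IL-1 family, Il1rl1 lies at chromosome 1, 40429570 to 40465415 on the plus strand (GENCODE M21 on GRCm38, the mm10 build). The gene (ENSMUSG00000026069.15) had 219, 225, 222, 168 and 216 normalized counts in Helios+ replicates 1 to 5, against 30.5, 21.2, 25.1, 20.5 and 13.6 in Helios- replicates 1 to 5. Every Helios+ library was above every Helios- library, and Helios+ replicate 4 was the lowest of its group. The means were 210.0 ± 23.7 in Helios+ cells and 22.2 ± 6.21 in Helios- cells (SD, n = 5 each). The log2 change was 3.22 ± 0.18 (SE, 95% interval 2.84 to 3.61, limma adjusted p = 4.32e-09). Il1rl1 is also expressed by mast cells, basophils and innate lymphoid cells of type 2. Of 11 markers of those cells 4 could be examined, with sums of 65.0 to 91.2 in Helios+ libraries and 38.5 to 57.4 in Helios- libraries, which do not overlap. Of the 2 tested, Hpgds was higher (54.3 normalized counts in Helios+ cells, 23.4 in Helios- cells, adjusted p = 0.00172 in limma) and Kit was not called. Hpgds alone was the largest part of the sums, which averaged 81.6 in Helios+ cells and 44.8 in Helios- cells. Gata2 and Cma1 were below the filter, and 2 of the 4 markers were at 0 in some library. The defining markers Fcer1a, Ms4a2, Cpa3, Mcpt8, Tpsb2, Il13 and Il5 were looked for and were not among the genes of the deposited table. Every gene of that table had at least 10 reads over all libraries together. The part of such cells in the Il1rl1 counts was not tested.

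Il1r2 encodes a decoy receptor, which binds IL-1 without signalling. Il1r2 (ENSMUSG00000026073.13, chromosome 1, 40074079 to 40125231, plus strand) had 66.0, 52.7, 33.3, 67.0 and 55.6 normalized counts in Helios+ replicates 1 to 5, against 14.1, 0, 0, 3.42 and 4.87 in Helios- replicates 1 to 5. All Helios+ libraries were above all Helios- libraries, and 2 of the Helios- libraries had no read, which allows up to 3.18 and 3.28 normalized counts (3 reads each, for counting error only). Mean counts were 54.9 ± 13.6 in Helios+ cells and 4.47 ± 5.77 in Helios- cells (SD, n = 5 each). The log2 change was 4.04 ± 0.65 (SE, 95% interval 2.64 to 5.44, limma adjusted p = 0.000379), on at most 69 reads in a library. This change ran from 2.41 with a pseudocount of 8 to 4.50 with one of 0.5, and was 4.59 without Helios- replicate 1. In count tests on the recovered reads it was 3.64, in both edgeR and DESeq2. Neutrophils and monocytes are also known to express Il1r2, and the marker sums of both, given above, overlapped between the groups. Within pairs of equal replicate number, the macrophage, monocyte and dendritic cell sum was higher in the Helios+ library in 5 of 5 and the neutrophil sum in 4 of 5. The part of such cells in the Il1r2 counts was not tested.

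The IL-18 receptor has a binding chain, Il18r1, and an accessory chain, Il18rap. Il18r1 (ENSMUSG00000026070.15, chromosome 1, 40465552 to 40500854, plus strand) had 808, 574, 607, 717 and 836 normalized counts in Helios+ replicates 1 to 5, against 706, 470.0, 392, 545 and 508 in Helios- replicates 1 to 5. The groups overlapped, while the Helios+ library was higher in all 5 pairs of equal replicate number, as in 19.8% of all genes tested. Il18r1 averaged 708 ± 117 in Helios+ cells and 524 ± 116 in Helios- cells (SD, n = 5 each), and its log2 change was 0.44 ± 0.15 (SE, adjusted p = 0.0385 in limma, and 1.95e-05 with the replicate block). The call was lost in 7 of 10 fits that left out 1 library, those that left out Helios+ replicates 1, 4 and 5 and Helios- replicates 2, 3, 4 and 5, with limma adjusted p from 0.00277 to 0.0928 over the 10 fits. Il18rap (ENSMUSG00000026068.11, chromosome 1, 40515362 to 40551705, plus strand) had 84.9, 87.8, 66.7, 73.8 and 76.5 normalized counts in Helios+ replicates 1 to 5, against 71.5, 49.7, 63.3, 77.8 and 42.8 in Helios- replicates 1 to 5. The Helios+ library was higher in 4 of 5 pairs. The log2 change of 0.37 ± 0.17 (SE, 95% interval 0.02 to 0.73) did not pass over all genes (limma adjusted p = 0.12, and 0.0564 with the replicate block). The test of Il18rap rests on group means of 77.9 ± 8.54 in Helios+ cells and 61.0 ± 14.6 in Helios- cells (SD, n = 5 each).

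**Figure D2:**
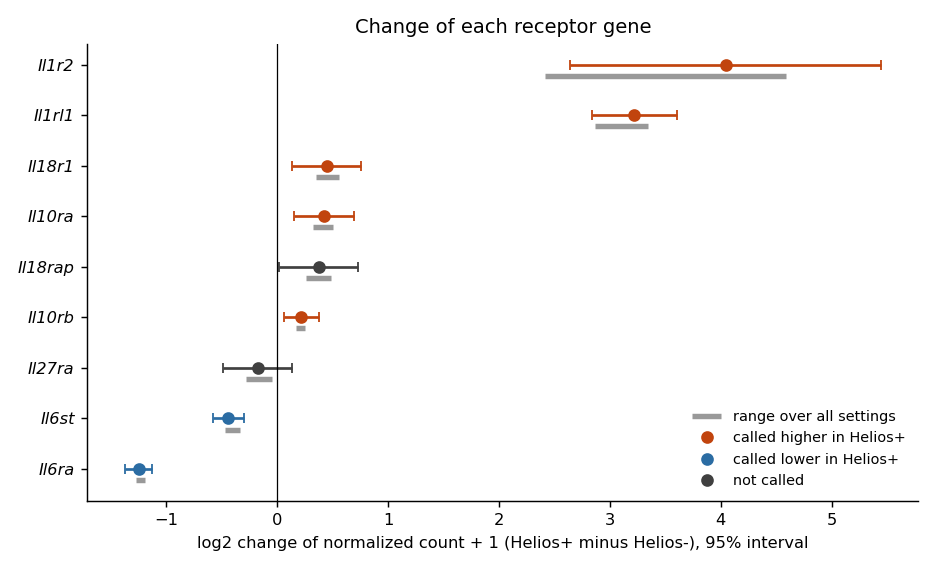
Log2 change, Helios+ minus Helios-, of each receptor gene (horizontal axis) in limma, with the 95% interval as a bar and the range over all settings tried in grey. Il1r2 at 4.04 and Il1rl1 at 3.22 lie farthest to the right and Il6ra at -1.25 farthest to the left, and no gene changed sign over those settings.

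In the IL-6 family, the binding chain and the shared chain were both lower in Helios+ cells. Il6ra (ENSMUSG00000027947.11, chromosome 3, 89864059 to 89913196, minus strand) had 822, 889.9, 840.1, 781 and 831 normalized counts in Helios+ replicates 1 to 5, against 2005, 2045, 1899, 1988 and 1972 in Helios- replicates 1 to 5. The groups were far apart, with means of 833 ± 39.1 in Helios+ cells and 1982 ± 53.6 in Helios- cells (SD, n = 5 each). The log2 change was -1.25 ± 0.06 (SE, 95% interval -1.37 to -1.13, limma adjusted p = 7.68e-10). A share of 2.80% of the exon bases of Il6ra lies opposite another annotated gene, Gm42809. Il6st encodes gp130, the signalling chain shared by receptors for IL-6, IL-27, leukaemia inhibitory factor and others. Il6st (ENSMUSG00000021756.12, chromosome 13, 112464070 to 112510086, plus strand) had 2022, 2345, 2331, 2367 and 2349 normalized counts in Helios+ replicates 1 to 5, against 2830.1, 3138, 3175, 3192 and 3166 in Helios- replicates 1 to 5. Again no libraries overlapped, and replicate 1 was the lowest of its group in both. Il6st averaged 2283 ± 146 in Helios+ cells and 3100 ± 152 in Helios- cells (SD, n = 5 each), with a log2 change of -0.44 ± 0.07 (SE, 95% interval -0.58 to -0.30, limma adjusted p = 0.000121).

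Il27ra pairs with gp130 to form the IL-27 receptor. Il27ra (ENSMUSG00000005465.9, chromosome 8, 84030294 to 84042589, minus strand) had 871, 724, 635, 769 and 723 normalized counts in Helios+ replicates 1 to 5, against 1201, 754, 618, 901 and 812 in Helios- replicates 1 to 5. The groups overlapped, replicate 1 was the highest and replicate 3 the lowest in both, and the Helios+ library was lower in 4 of 5 pairs. Means were 745 ± 85.8 in Helios+ cells and 857 ± 218 in Helios- cells (SD, n = 5 each). The log2 change of -0.18 ± 0.14 (SE, 95% interval -0.49 to 0.14) did not pass (limma adjusted p = 0.428). With the replicate block Il27ra passed as lower (limma adjusted p = 0.0296), and without Helios- replicate 1 the change was -0.04 (adjusted p = 0.80). The summed B cell markers were also highest in replicate 1 of both groups, at 2281 in the Helios+ library and 2687 in the Helios- library. They were lower in the Helios+ library in 5 of 5 pairs, and their part in the Il27ra counts was not tested.

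Both chains of the IL-10 receptor were higher in Helios+ cells, Il10ra by 1.34-fold and Il10rb by 1.16-fold. Il10ra, the chain that binds IL-10 (ENSMUSG00000032089.16, chromosome 9, 45253837 to 45269149, minus strand), had 685, 878, 676, 574 and 559.8 normalized counts in Helios+ replicates 1 to 5, against 554, 619, 451, 433 and 454 in Helios- replicates 1 to 5. Replicate 2 was the highest in both groups, and the groups overlapped. The Helios+ library was higher in all 5 pairs, as in 19.8% of all genes tested. Il10ra averaged 675 ± 127 in Helios+ cells and 502 ± 80.8 in Helios- cells (SD, n = 5 each), and its log2 change was 0.42 ± 0.13 (SE, adjusted p = 0.0249 in limma, and 5.21e-06 with the replicate block). This call was lost in 4 fits, those that left out Helios+ replicate 2 and Helios- replicates 3, 4 and 5, with limma adjusted p from 0.0101 to 0.0681 over the 10 fits that left out 1 library.

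Il10rb encodes the chain shared with the IL-22 and lambda interferon receptors. Il10rb (ENSMUSG00000022969.13, chromosome 16, 91406164 to 91425834, plus strand) had 409.7, 427, 459, 426 and 443 normalized counts in Helios+ replicates 1 to 5, against 388, 328, 369, 367 and 414 in Helios- replicates 1 to 5. Each Helios+ library was above the Helios- library of its number, as in 19.8% of all genes tested, although the groups overlapped. Il10rb averaged 433 ± 18.7 in Helios+ cells and 373 ± 31.4 in Helios- cells (SD, n = 5 each), and its log2 change was 0.22 ± 0.07 (SE, adjusted p = 0.0427 in limma, and 0.0119 with the replicate block). The call was lost in 7 of 10 fits without 1 library, namely Helios+ replicates 2, 3, 4 and 5 and Helios- replicates 2, 3 and 4, with limma adjusted p from 0.026 to 0.115 over the 10 fits. A share of 14.9% of its exon bases is shared on the same strand with the annotated gene Gm21970, so its count is uncertain to that extent.

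The order of the receptors by level, per kilobase of merged exons, differed between the populations. In Helios+ cells Il27ra (213 ± 24.5 normalized counts per kilobase), Il6st (206 ± 13.2) and Il10ra (193 ± 36.4) had the highest levels, followed by Il18r1 (147 ± 24.3) and Il10rb (114 ± 4.91) (SD, n = 5 each), and neighbours in this run overlapped. Il6ra was the sixth at 96.4 ± 4.53, below every Il10rb library. Il1rl1 (30.5 ± 3.44) and Il1r2 (28.8 ± 7.14) overlapped each other, and Il18rap was the lowest at 11.5 ± 1.27. In Helios- cells Il6st (279 ± 13.7), Il27ra (245 ± 62.3) and Il6ra (229 ± 6.20) had the highest means. Il27ra overlapped both others, while every Il6st library was above every Il6ra library. Il10ra (144 ± 23.1), Il18r1 (109 ± 24.2) and Il10rb (98.0 ± 8.24) came next, each overlapping its neighbour in the order, and the highest Il10ra library (177.01) was just above the lowest Il27ra library (176.9). Last came Il18rap (9.04 ± 2.16), Il1rl1 (3.22 ± 0.90) and Il1r2 (2.34 ± 3.02). Of these, Il1r2 overlapped both Il18rap and Il1rl1, whereas Il18rap and Il1rl1 did not overlap. Il6ra was thus the sixth in Helios+ cells and the third in Helios- cells, while Il18rap was below Il1rl1 and Il1r2 in Helios+ cells and above their means in Helios- cells.

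**Figure D3:**
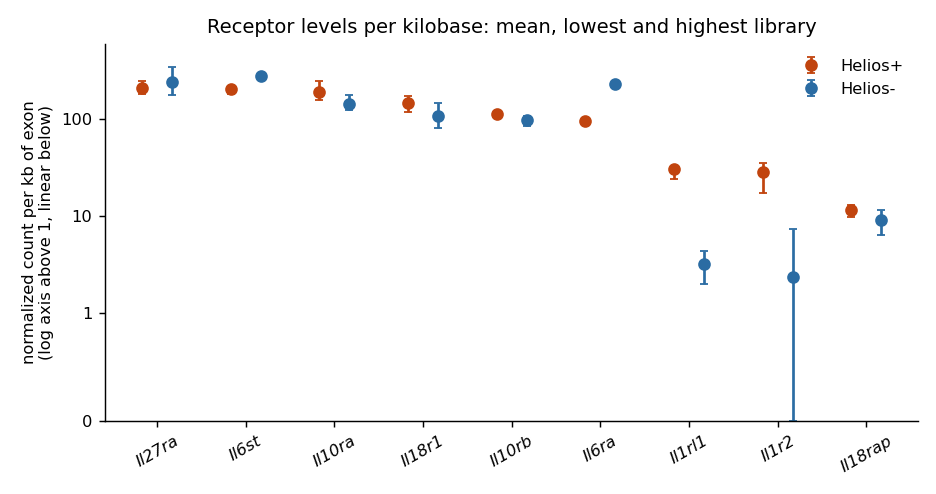
Normalized counts per kilobase of merged exons (log axis above 1) of the receptor genes in Helios+ and Helios- cells, as the mean with the lowest and highest library. Il1rl1, Il1r2 and Il6ra show a gap between the populations, as does Il6st at a smaller size.

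Ratios of a specific chain to its partner, taken within each library on the normalized counts, showed where the chains of 1 receptor moved unequally. The log2 ratio of Il6ra to Il6st was -1.30, -1.40, -1.47, -1.60 and -1.50 in Helios+ replicates 1 to 5, against -0.50, -0.62, -0.74, -0.68 and -0.68 in Helios- replicates 1 to 5. The ratios did not overlap and differed by -0.81. Il1rl1 to its accessory chain Il1rap had log2 ratios of 0.13 to 0.71 in Helios+ libraries and -3.58 to -2.35 in Helios- libraries, a difference of 3.30. Il1rap itself averaged 149 ± 13.3 normalized counts in Helios+ cells and 152 ± 24.0 in Helios- cells (SD, n = 5 each), with a log2 change of -0.01 (95% interval -0.26 to 0.23, limma adjusted p = 0.946). The other ratios overlapped between the groups, but 2 of the 3 differed in 1 direction within every pair of equal replicate number. Il18r1 to Il18rap averaged 3.17 ± 0.28 in Helios+ cells and 3.11 ± 0.38 in Helios- cells (SD, n = 5 each), higher in the Helios+ library in 2 of 5 pairs. Il10ra to Il10rb averaged 0.62 ± 0.28 in Helios+ cells and 0.42 ± 0.31 in Helios- cells, and Il27ra to Il6st averaged -1.62 ± 0.25 in Helios+ cells and -1.89 ± 0.41 in Helios- cells, and each was higher in the Helios+ library in 5 of 5 pairs. These ratios are descriptions with no test.

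**Figure D4:**
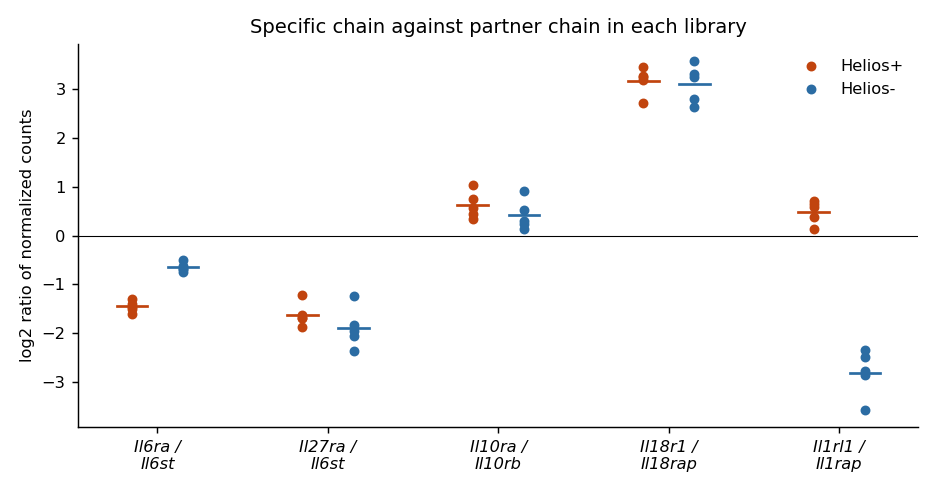
Log2 ratio of the normalized counts of a ligand-specific chain to its shared or accessory chain in each library, Helios+ left and Helios- right, with the mean as a short line. Il1rl1 to Il1rap and Il6ra to Il6st separate the groups, and the other 3 ratios overlap, although Il10ra to Il10rb and Il27ra to Il6st are higher in the Helios+ library of every pair.

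All 4 IL-1 family members sit in a cluster of 6 receptor genes on chromosome 1, 40074079 to 40551705, a span of 478 kilobases, in the order Il1r2, Il1r1, Il1rl2, Il1rl1, Il18r1 and Il18rap. Il1rl1 ends 136 bases before Il18r1 begins, and Il18r1 ends 14507 bases before Il18rap. Across these neighbours the sizes of change were unequal, from 3.22 for Il1rl1 to 0.44 for Il18r1 and 0.37 for Il18rap on the log2 scale. The signalling IL-1 receptor Il1r1 was below the filter, with 5.29 ± 3.61 normalized counts in Helios+ cells and 11.1 ± 11.1 in Helios- cells (SD, n = 5 each). The IL-36 receptor Il1rl2 averaged 13.7 ± 5.50 in Helios+ cells and 17.5 ± 2.58 in Helios- cells and did not pass (log2 change -0.42, limma adjusted p = 0.356). Map4k4, a kinase gene beside the cluster, was lower (2433 ± 72.2 in Helios+ cells and 3006 ± 218 in Helios- cells, limma adjusted p = 0.00249), a call that was lost with quantile normalization. Il10rb lies among class II receptor genes on chromosome 16, which moved in both directions. Ifnar2, of the type I interferon receptor, was higher (734 ± 52.8 in Helios+ cells and 540 ± 41.9 in Helios- cells, adjusted p = 0.000284). Ifngr2, of the interferon gamma receptor, was lower (222 ± 20.9 in Helios+ cells and 312 ± 17.3 in Helios- cells, limma adjusted p = 0.000408). Of the 7 neighbours of Il10rb tested, 1 was higher and 2 lower, beside 14.1% and 10.7% of all genes tested. Their median was -0.21, beside -0.02 over all genes. With the replicate block 1 was higher and 4 lower, beside 18.9% and 18.5%.

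The ligands of these receptors were mostly not among the tested genes. Of the IL-1 family ligands listed, Il1b and Il18 were in the table, and neither reached the filter. Of 4 IL-6 and IL-12 family ligands tested, 2 were higher, beside 14.1% of all genes tested, and the median log2 change was 0.76. Both higher genes, Ebi3 and Lif, had Helios- means below 10 and passed the filter through their Helios+ values. The count and the median therefore lean toward higher genes. Ebi3, a subunit of IL-27 and IL-35, averaged 74.5 ± 17.2 normalized counts in Helios+ cells and 7.10 ± 3.19 in Helios- cells (SD, n = 5 each), giving a log2 change of 3.29 ± 0.30 (SE, adjusted p = 6.6e-07 in limma). A share of 23.4% of the Ebi3 exon bases lies opposite another annotated gene. Lif, which signals through gp130, averaged 26.8 ± 7.09 in Helios+ cells and 7.32 ± 5.12 in Helios- cells (log2 change 1.94 ± 0.41, adjusted p = 0.0025). Il10 had 14.3 ± 6.79 in Helios+ cells and 8.12 ± 3.06 in Helios- cells and did not pass (log2 change 0.71, adjusted p = 0.2). With the replicate block the other two ligands tested, Osm and Clcf1, passed as lower.

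None of 4 further IL-1 family receptors and decoys tested was called (median -0.22), and Il18bp, the soluble binder of IL-18, had 33.6 ± 5.94 in Helios+ cells and 48.6 ± 11.2 in Helios- cells (adjusted p = 0.0595, and 0.0206 with the replicate block). Of 5 IL-6 and IL-12 family receptors 1 was higher, Il12rb1, at 134 ± 14.1 in Helios+ cells and 97.1 ± 21.2 in Helios- cells (limma adjusted p = 0.0192). Among 5 class II receptors outside the members, Ifnar2 was higher and Ifngr2 lower. Of 4 proteases and cofactors of receptor shedding tested, Rhbdf2, an adaptor of ADAM17, was lower (66.7 ± 11.01 in Helios+ cells and 104 ± 21.6 in Helios- cells, adjusted p = 0.00814). Adam10, Adam17 and Furin had log2 changes of 0.15, 0.05 and 0.04 and did not pass. Over all genes tested, 14.1% were higher and 10.7% lower. Lists of 4 or 5 genes are too small to be set apart from those shares.

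Genes of IL-1 receptor signalling moved in both directions, with 4 of 20 higher and 2 lower (median 0.02), and 4 higher and 4 lower with the replicate block. Over all genes tested, 14.1% were higher and 10.7% lower, and 18.9% and 18.5% with the block. Peli2, which encodes an E3 ubiquitin ligase acting on IRAK proteins, averaged 80.0 ± 13.5 normalized counts in Helios+ cells and 15.97 ± 2.93 in Helios- cells (SD, n = 5 each), giving a log2 change of 2.26 ± 0.18 (SE, adjusted p = 2.07e-07 in limma). Irak3, known as a restraint on this pathway, was lower at 63.7 ± 14.4 in Helios+ cells and 104 ± 12.4 in Helios- cells (log2 change -0.72, adjusted p = 0.0021). Ikbkb, a kinase of the NF-kB pathway, was also lower (816 ± 94.8 in Helios+ cells and 1166 ± 236 in Helios- cells, adjusted p = 0.00781). Mapkapk2, a kinase downstream of p38, was higher (673 ± 43.9 in Helios+ cells and 523 ± 70.2 in Helios- cells, adjusted p = 0.00596), as were Irak2 and Irak4.

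Of 18 genes of gp130 and IL-10 receptor signalling, 5 were higher and 4 lower (median -0.01), and 6 higher and 5 lower with the replicate block. The shares over all genes tested were 14.1% higher and 10.7% lower, and 18.9% and 18.5% with the block. Socs3, a feedback inhibitor that binds gp130, averaged 233 ± 38.8 normalized counts in Helios+ cells and 583 ± 92.3 in Helios- cells (SD, n = 5 each), 2.51-fold lower, and its log2 change was -1.32 ± 0.13 (SE, adjusted p = 1.81e-06 in limma). Jak1, the kinase used by gp130, was lower at 5903 ± 301 in Helios+ cells and 7723 ± 798 in Helios- cells (adjusted p = 0.00212). Cish, an inhibitor induced by STAT5, was higher at 586 ± 50.9 in Helios+ cells and 393 ± 31.3 in Helios- cells (adjusted p = 5.94e-05), as were Jak2, Stat5a, Pias3 and the phosphatase gene Ptpn11, whereas Ptpn2 and Pias1 were lower. Stat3 averaged 1414 ± 54.9 in Helios+ cells and 1428 ± 27.2 in Helios- cells and did not pass (adjusted p = 0.885).

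Among 15 genes listed as STAT3 targets, 7 were higher and 1 lower (median 0.54, beside -0.02 over all genes), and 9 higher and 1 lower with the replicate block. Of all genes tested, 14.1% were higher and 10.7% lower, and 18.9% and 18.5% with the block. Socs3, also on this list and given above, was the lower gene. Batf, an AP-1 family factor gene, was higher at 280 ± 46.4 in Helios+ cells and 115 ± 15.3 in Helios- cells (SD, n = 5 each, limma adjusted p = 1.89e-06), and Rora, a nuclear receptor gene, at 195 ± 29.99 in Helios+ cells and 69.9 ± 14.2 in Helios- cells (adjusted p = 1.92e-06). Junb, Maf, Hif1a, Ahr and Bcl2l1 were the remaining higher genes.

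Of 13 genes tested that are known from ST2+ tissue Treg cells, 10 were higher and 1 lower (median 0.73, beside -0.02 over all genes). The shares of all genes tested were 14.1% and 10.7%. This list was drawn up with earlier results of these data known. Klrg1 and Ccr8 had Helios- means below 10 and passed the filter through their Helios+ values, so the count leans toward higher genes. Klrg1, an inhibitory receptor gene, averaged 89.2 ± 18.01 normalized counts in Helios+ cells and 4.44 ± 2.12 in Helios- cells (SD, n = 5 each), giving a log2 change of 4.13 ± 0.29 (SE, adjusted p = 5.21e-08 in limma). Ccr8, a chemokine receptor gene, averaged 92.3 ± 15.1 in Helios+ cells and 5.38 ± 2.18 in Helios- cells (log2 change 3.94). Irf4, a transcription factor gene, was higher at 649 ± 44.9 in Helios+ cells and 389 ± 13.5 in Helios- cells (adjusted p = 7.62e-07), and Gata3, the factor gene of type 2 immunity, at 942 ± 118 in Helios+ cells and 638 ± 113 in Helios- cells (adjusted p = 0.00216). Gpr183 was the gene that was lower. Batf, Rora and Maf are on this list and on that of STAT3 targets. Areg, the growth factor amphiregulin, was below the filter, with 12.3 ± 4.87 in Helios+ cells and 0.624 ± 0.581 in Helios- cells. Others of the 16 listed genes were also below the filter, and their values are not given here.

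**Figure D5:**
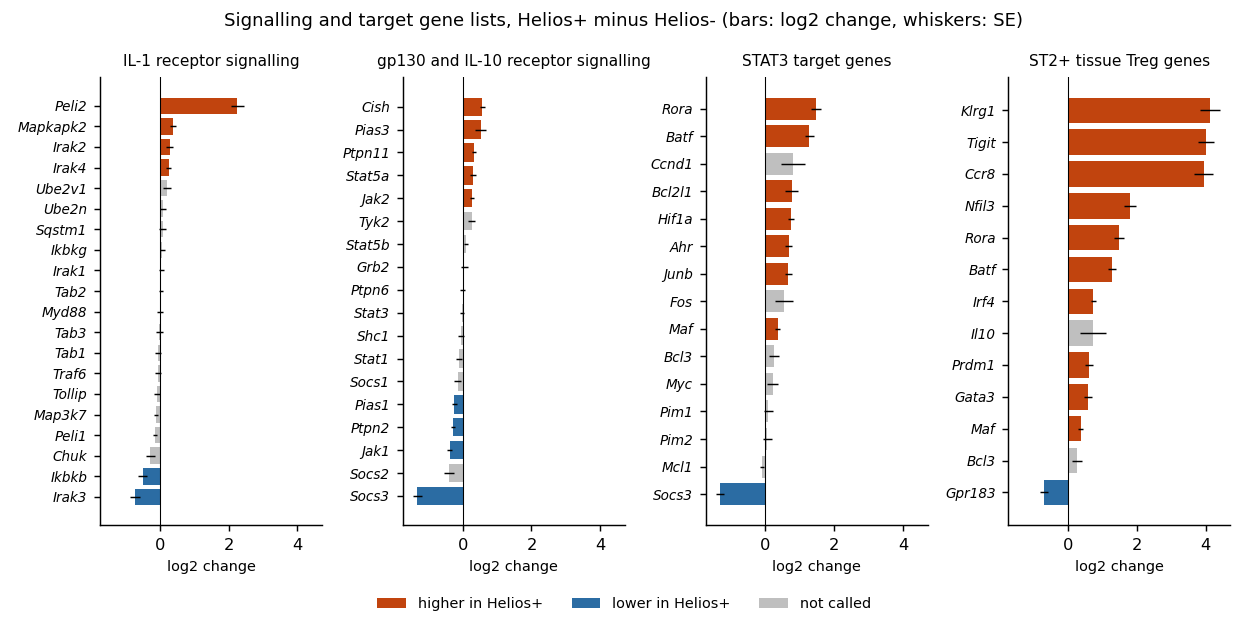
Log2 change, Helios+ minus Helios-, of genes from the signalling and target lists, with bars for the change in limma and whiskers for its SE, coloured by whether the gene was higher, lower or not called. Peli2 at 2.26 and Klrg1 at 4.13 lie above 0, and Socs3 at -1.32 and Irak3 at -0.72 lie below.

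For 1 receptor of each family, the genes with the most similar values over the 10 libraries were found among 8004 genes with a mean of at least 50, by the mean absolute difference of log2 values after each gene's own mean was removed. For Il1rl1 these were Tox2 (0.17), Gucy1a3 (0.29) and Ttn (0.29). For Il6ra they were Pdk1 (0.063), Satb1 (0.074) and Grap2 (0.095), and for Il10ra Rbm45 (0.092), Atg14 (0.10) and Zscan29 (0.10). Tox2 had a log2 change of 2.94 beside 3.22 for Il1rl1, and Pdk1 and Satb1 had -1.22 and -1.35 beside -1.25 for Il6ra. These distances describe likeness in the 10 libraries shared by all genes and were not tested.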

How the data were processed

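Per the labels' protocols, RNA from the 10 sorted samples was extracted on columns with DNase I, and stranded total RNA libraries were made with a SMARTer Pico kit. The submitters' processing notes name mm10, HISAT2 2.0.4, HTSeq and DESeq2. Neither the annotation nor the strand setting of the counting is given in the sources used here. The authors deposited 1 table of normalized counts, a signal that is not whole: each value was a whole number of reads divided by 1 size factor per library, within a tolerance of 0.001, for 100% of 132520 values. Recovered reads were 4872348 to 6948692 per library. Libraries of the same group differed beyond sampling noise (chi-square per degree of freedom 3.26 to 45.4 over 20 pairs), so none were merged.

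The main test was limma 3.58.1 (R 4.3.3, trend and robust) on log2(normalized count + 1) and a model of the group alone, for genes with a mean of at least 10, and calls at a Benjamini-Hochberg adjusted p under 0.05 over all 10718 genes. Alternatives were the replicate block, count tests on the recovered reads (edgeR 4.0.16 and DESeq2 1.42.0), other pseudocounts, filters and scalings, and leaving out libraries. The scripts were tested on simulated data. Deviations from group means correlated at 0.48, 0.19, 0.39, 0.16 and 0.15 between libraries of equal number 1 to 5, all above 0.1, and the numbers were taken as pairs. The highest correlation with a library of another number was 0.099, -0.00078, 0.117, 0.099 and 0.117 for numbers 1 to 5. Each number thus correlated most with its own, but the margin was small for numbers 4 and 5, and 0.1 alone does not separate pairs from other libraries.

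The receptors, gene lists and rules were chosen with earlier results of these data known. Named genes were the 9 receptors, up to 4 genes per list with the smallest p, the most abundant markers, chromosomal neighbours, and 3 genes of most similar pattern for 1 receptor per family. A gene of 1 list is not reported here. Further list members (among them Gata3, Areg and Stat3) were named after their values were seen. Coordinates and lengths are from GENCODE M21.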

Additional observations from a re-analysis of the deposited data

Results flagged for a closer look

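Within each group of 5 libraries, the lowest or highest value was set against the gap expected of a single stray value (Dixon's critical value 0.71), for 77 genes in 154 groups, and 12 groups passed. Chance flags about 1 in 20 groups, and the cause was not tested.

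Il1rl1 was lower in Helios+ replicate 4, at 168 normalized counts, than in the other Helios+ libraries (216 to 225). Il6st was lowest in replicate 1 of both groups, at 2022 in the Helios+ library (others 2331 to 2367) and 2830.1 in the Helios- library (others 3138 to 3192). Among neighbouring genes, Il1r1 had 30.5 in Helios- replicate 1 (others 3.42 to 9.73), Il1rl2 had 13.1 in Helios- replicate 3 (others 17.96 to 19.9), Mfsd9 had 16.8 in Helios+ replicate 1 (others 9.40 to 10.7) and Ifnar2 had 824 in Helios+ replicate 5 (others 695 to 729.8). Among signalling and target genes, Irak3 had 89.1 in Helios+ replicate 1 (others 54.7 to 61.9) and Cish had 499 in Helios+ replicate 1 (others 586 to 621). Ctla4 had 2031 in Helios+ replicate 2 (others 1334 to 1473), Lyz2 had 322 in Helios+ replicate 1 (others 143 to 177) and Ttn had 1009 in Helios- replicate 1 (others 509 to 636).

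Of the 12 values, 8 were in a library with replicate number 1, some above and some below the others of their group.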

How the results depend on the processing

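No receptor changed sign under any setting tried. Il1rl1, Il6ra and Il6st kept their calls in all 24 alternatives, as did Il1r2 in the 23 that tested it (at a mean of at least 50 it was not tested), and Il18rap was never called. Il10ra lost its call in 7, Il18r1 in 11 and Il10rb in 12, 1 of them without a filter (adjusted p = 0.0503), and otherwise when libraries were left out. Leaving out both libraries of 1 replicate number was added after seeing the data. Leaving out 1 library gave 2259 to 2907 genes called, 1332 to 1614 higher, 927 to 1293 lower, and 4 to 7 receptors called. Leaving out a pair gave 1940 to 2653 genes called, 1192 to 1499 higher, 748 to 1154 lower (748 without replicate 4) and 4 to 6 receptors. With the replicate block as a pairing, 4000 genes were called and 1979 were lower, Il27ra was called lower (-0.18, adjusted p = 0.0296), and no other receptor call changed. Calls in the lists moved with the block for IL-1 family receptors and decoys (1 against 0), IL-6 and IL-12 family ligands (4 against 2), shedding proteases (2 against 1) and neighbours of Il10rb (5 against 3). With quantile normalization, 1 IL-1 family receptor or decoy, 4 IL-6 and IL-12 family ligands and 0 neighbours of the chromosome 1 cluster were called, and the split was 1376 higher and 1357 lower genes, beside 1512 and 1143. The cause of these shifts was not tested. With the longest transcript as length, 7 of 9 receptors kept their place in the order of levels in Helios+ cells (Il27ra and Il6st changed places) and 7 of 9 in Helios- cells (Il18r1 and Il10rb changed places), 5 of 9 in both. The depth limits Il1r2 most, with at most 69 reads in a library and none in 2.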
